A study of Saccharomyces cerevisiae with 64 samples.

Results

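The genes described here encode the proteasome of Saccharomyces cerevisiae and its transcription factor Rpn4. They were every gene of the deposited table whose standard symbol is RPN, RPT, PRE or PUP followed by digits, together with SCL1. The rule took 34 of the 6660 genes with values, and 34 of the 34 had a value in every condition. Of these, 32 encode structural subunits. The other two are RPN4, the transcription factor, and RPN14, a chaperone that helps to assemble the base and is not part of the finished particle.

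The samples were polyadenylated RNA of sporulating S288c cultures, 64 in number, with 2 replicates at each of 32 conditions. Wild type and a strain labelled kfc1 -- were followed without overexpression and with overexpressed IME1, at 0, 2, 4, 6, 8 and 12 h. Both strains were also followed with overexpressed IME1 and RIM4, at 0, 12, 24 and 48 h. Ime1 is the transcription factor at the head of meiosis, and Rim4 an RNA-binding protein needed for it. Sample titles name the constructs PzevIME1 and PzevRIM4 and do not say whether they were induced at 0 h. For the arms without overexpression and with IME1, the wild-type samples, 24 in all, were taken over from an earlier series, so strain and series of origin cannot be told apart in those arms. Labels do not say whether the deletion strain is 1 clone.

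The table holds 1 log2 ratio per gene and condition, made by the authors from both replicates. Every value below is relative to wild type without overexpression at 0 h. With no value per replicate, no error can be given, no test was run, and the read depth is unknown. The rule for counting a gene was a log2 difference of at least 1, which is 2-fold. Over several time points the mean had to reach 1 with no change of sign between them, and "rose" and "fell" are used only of genes counted in this way. Percentages beside a count are the share of all genes in the table that the same rule counted. VIR1, known as another name of the gene deleted in kfc1, stood between -5.73 and -9.41 in the 11 kfc1 columns that share this reference and between -0.07 and 2.07 in wild type, as the labels have it. For kfc1 without overexpression at 2 to 12 h, 5 columns, it was deposited at -0.0036 to 1.03. Those columns were read as relative to kfc1 at 0 h and its value there was added, so their low VIR1 values come from that step and do not check their labels. No label or header states this reference.

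The proteasome degrades proteins tagged with ubiquitin. Its core is a barrel in which an alpha ring gates each end and beta rings hold the proteolytic sites. Its regulatory particle has a base, with ATPases that unfold substrates and receptors that bind ubiquitin, and a lid that removes the ubiquitin chain. Yeast expresses the subunit genes together through Rpn4, which binds the proteasome-associated control element (PACE), GGTGGCAAA, in their promoters. Rpn4 is itself a short-lived substrate of the proteasome, so its protein is kept low while proteasomes are plentiful. Proteasome activity is needed in meiosis to remove regulators as cells pass from one stage to the next.

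The element was read from the 500 bases before each start codon in the R64 assembly (RefSeq; the same assembly as sacCer3), on both strands. GGTGGCAAA was present before 27 of the 32 subunit genes and before 1.64% of all 6019 promoters. Its first base lay between 84 and 183 bases before the start codon, with a median of 120, and it read in the direction of the gene in 19 of the 27. Each of the other 5 carried the element with 1 substitution, so that 32 of 32 subunit genes had it with at most 1 mismatch, against 12.3% of all promoters. The following stretches are shown because the genes recur below or because their element departs from the others; capitals mark the element, each is 33 bases long and is written along the strand on which the element reads.
PRE6, chrXV:255216-255248, minus strand: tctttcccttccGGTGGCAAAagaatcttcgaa
RPT6, chrVII:411350-411382, minus strand: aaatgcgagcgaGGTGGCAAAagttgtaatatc
RPN1, chrVIII:164836-164868, minus strand: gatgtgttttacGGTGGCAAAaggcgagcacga
RPN5, chrIV:190774-190806, plus strand: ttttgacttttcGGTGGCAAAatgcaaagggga
RPN11, chrVI:153257-153289, plus strand: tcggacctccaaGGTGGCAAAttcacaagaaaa
PRE5, chrXIII:901550-901582, plus strand: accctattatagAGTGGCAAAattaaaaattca
PUP1, chrXV:631889-631921, minus strand: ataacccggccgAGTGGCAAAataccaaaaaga
RPN8, chrXV:817083-817115, minus strand: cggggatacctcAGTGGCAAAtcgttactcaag
RPN10, chrVIII:498966-498998, minus strand: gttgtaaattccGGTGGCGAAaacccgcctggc
RPN13, chrXII:965654-965686, minus strand: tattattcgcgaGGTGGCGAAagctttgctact
Counted from 1 at the 5′ end of the element, PRE5, PUP1 and RPN8 carried the substitution G1A, and RPN10 and RPN13 carried A7G. Neither RPN4 nor RPN14 had GGTGGCAAA in its window.

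The window before RPN4 held other elements. Of the 34 genes, RPN4 was the one with TCCGTGGA, a form of the pleiotropic drug response element, which 1.05% of promoters hold, and the one with a heat shock element, which 1.48% hold. It also held TTAGTAA, an element of Yap1, found in 6 of the 34 and in 11.8% of promoters. The stretch below runs from 454 to 356 bases before the start codon, written along the strand of the gene. Capitals mark 2 copies of the drug response form, the second read on the opposite strand, and the Yap1 element, also read on the opposite strand.
RPN4, chrIV:417064-417162, minus strand: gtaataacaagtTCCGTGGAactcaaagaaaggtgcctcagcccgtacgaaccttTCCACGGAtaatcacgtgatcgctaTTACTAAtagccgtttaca
The cores of promoter elements known from meiotic genes were also counted. GGCGGC, the core of the early element URS1, was before 5 of the 34 and before 9.54% of all promoters, and CACAAA, the core of the middle sporulation element, was before 9 of the 34 and 29.7% of all.

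**Figure D1:**
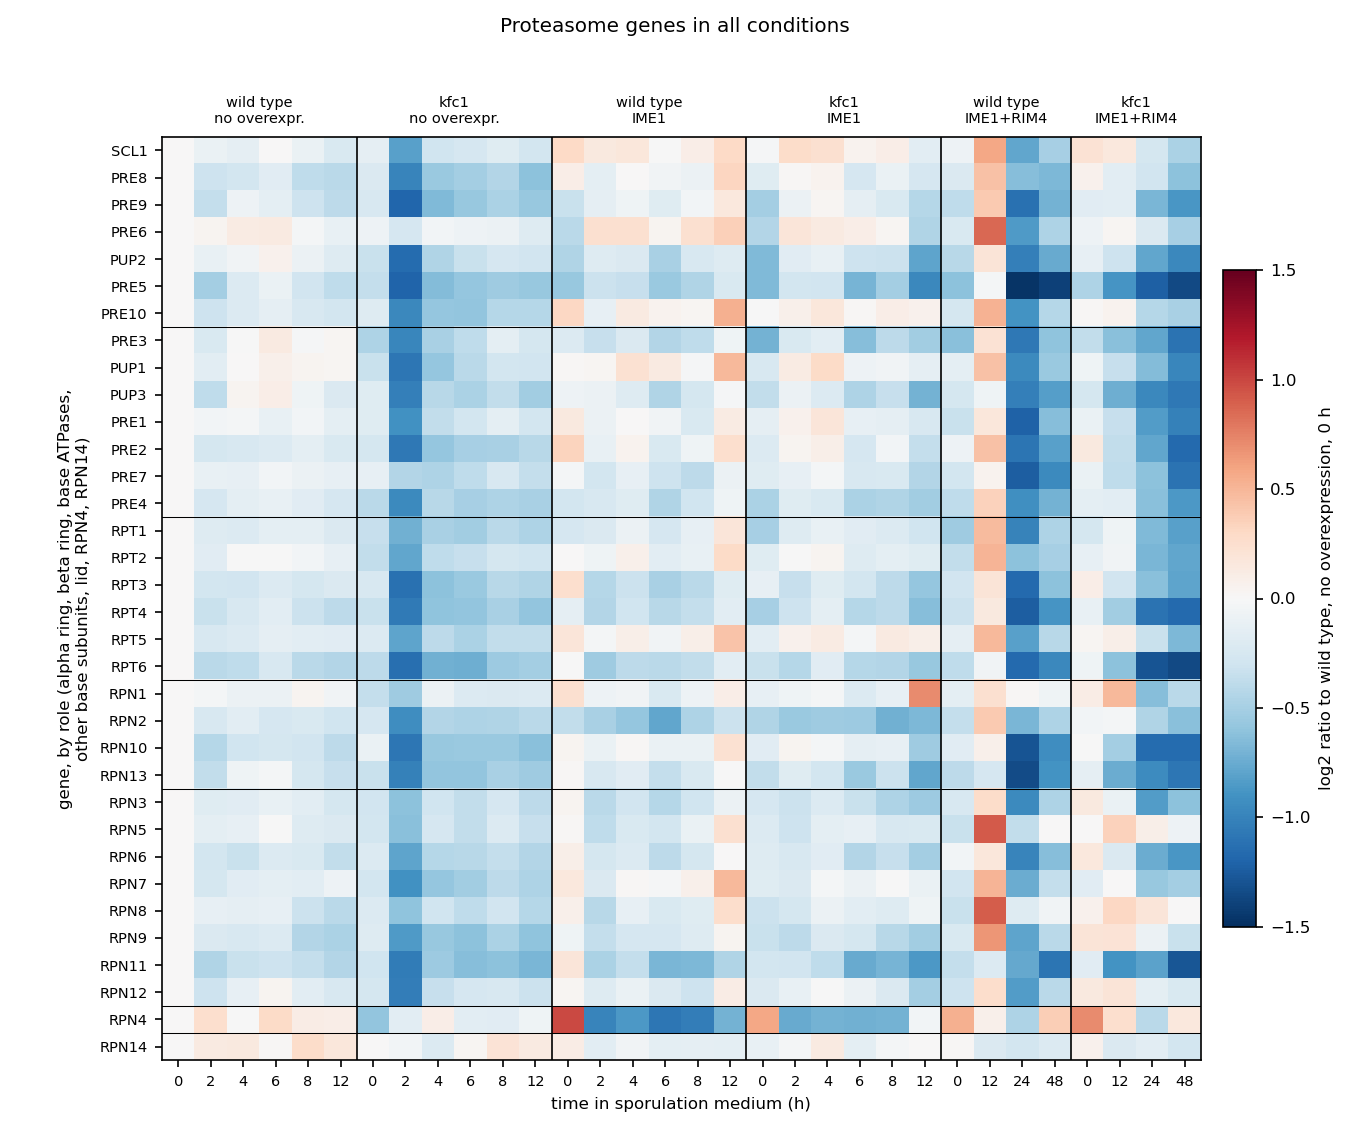
Log2 ratio to wild type without overexpression at 0 h (colour) for the 34 genes (rows, ordered by place in the particle) in the 32 conditions (columns; time in sporulation medium in h). The subunit rows are bluest in kfc1 without overexpression at 2 h and with IME1 and RIM4 at 24 and 48 h, while RPN4, near the bottom, has a course of its own.

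Across the 32 conditions the subunit genes stayed close together. The middle 50% of the 32 subunit genes spanned 0.14 to 0.58 log2 units, depending on the condition, whereas the middle 50% of all genes spanned 0.36 to 1.44. Pearson's r between a subunit gene and the median of the other 31, over the 32 conditions, ran from 0.46 to 0.96 with a median of 0.87. The median r of all genes with the subunit median was -0.004. These correlations describe the table: the conditions share their reference and, within an arm, their strain, and time points follow each other. RPT4, a base ATPase, stood highest at 0.96, and the beta-ring gene PRE2, which carries the chymotrypsin-like site, reached 0.95. RPN1 (0.46), RPN8 (0.46) and RPN5 (0.55) stood lowest. RPN4 itself had an r of 0.02 with the subunit median, and RPN14 one of 0.28.

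In wild type without overexpression the subunit genes lay slightly below their 0 h level throughout. Their median was -0.25, -0.15, -0.11, -0.17 and -0.23 at the successive times from 2 to 12 h. Over these times 0 of the 34 genes were counted as changed, where 3.66% of all genes were. PRE6, an alpha-ring gene, was the highest subunit gene at 2, 4 and 6 h, at 0.04, 0.12 and 0.13. In these bulk cultures, fewer cells of one kind and less RNA per cell cannot be told apart.

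The largest movement of the proteasome genes came in wild type with IME1 and RIM4, where a high level at 12 h was followed by a fall by 24 h. The subunit median stood at -0.30, 0.31, -0.95 and -0.61 at 0, 12, 24 and 48 h. At 12 h 27 of the 32 subunit genes were above 0, and at 24 h 1 was, RPN1. From 12 to 24 h 29 of the 34 genes fell, a set made up of 29 of the 32 subunit genes, while 7.33% of all genes fell. The subunit median was -1.28 for that step, a 2.44-fold decrease, and the median of all genes was -0.05.

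**Figure D2:**
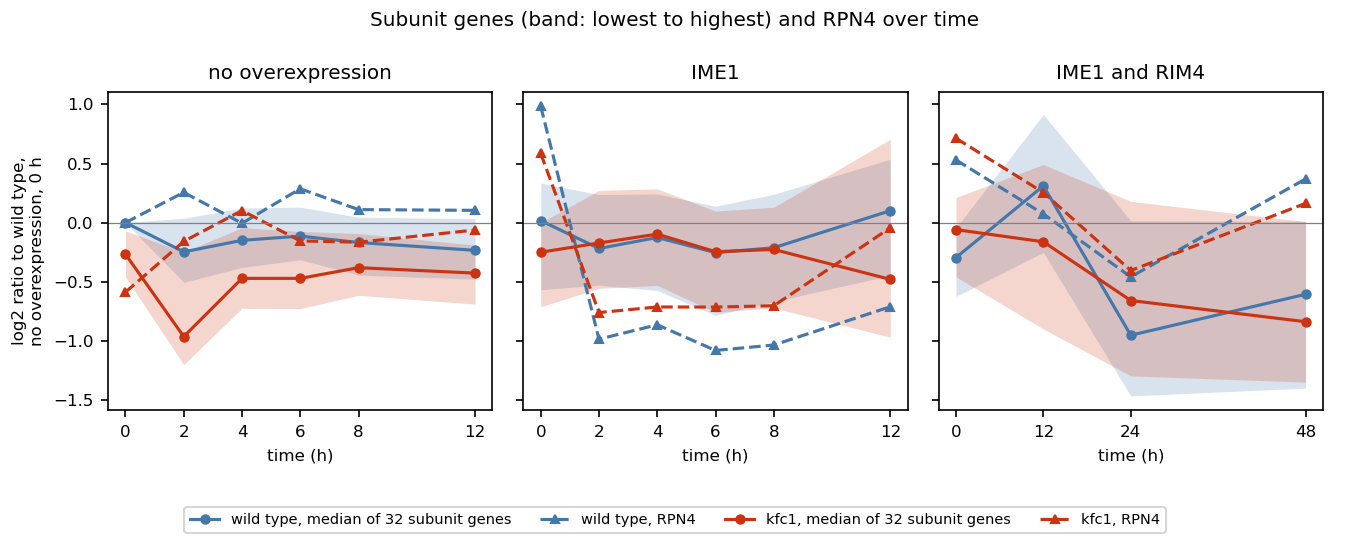
Median of the 32 subunit genes (circles), their lowest to highest value (bands) and RPN4 (triangles, dashed) against time in h, as log2 ratio to wild type without overexpression at 0 h, in the 3 arms (panels) and both strains (colours). With IME1 and RIM4 the wild-type subunit median goes from 0.31 at 12 h to -0.95 at 24 h, and with IME1 RPN4 drops between 0 and 2 h while the wild-type subunit median lies between -0.25 and 0.10.

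Every place in the particle took part in this fall. In the alpha ring 7 of 7 genes fell, led by PRE6, which stood at -0.23, 0.86, -0.85 and -0.46 at 0, 12, 24 and 48 h. Its 12 to 24 h difference of -1.71 was the largest among the 34. PRE5, another alpha-ring gene, stood at -0.61, -0.02, -1.47 and -1.40 and was the lowest subunit gene at 24 and at 48 h. In the beta ring PRE2 stood at -0.07, 0.44, -1.09 and -0.81. PUP3, also of the beta ring, differed by -0.96 from 12 to 24 h, just short of the 2-fold rule, while the other beta-ring genes fell.

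The 6 ATPase genes of the base fell by between 1.11 (RPT6) and 1.48 (RPT1). Among the other base genes, RPN10 and RPN13, the ubiquitin receptors, fell by 1.38 and 1.09. RPN1, a scaffold of the base that docks ubiquitin-binding shuttle proteins, stood at -0.14, 0.24, 0.02 and -0.07 and did not take part, with a difference of -0.22. In the lid RPN11, the enzyme that cleaves the ubiquitin chain from the substrate, stood at -0.35, -0.20, -0.77 and -1.09. Its difference from 12 to 24 h was -0.57, and it was lower again at 48 h, when 29 of the 32 subunit genes were above their 24 h value. From 24 to 48 h the subunit median was 0.36 higher and 0 of the 34 genes were counted, against 7.12% of all genes.

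The step before it, from 0 to 12 h, was smaller. All 32 subunit genes were higher at 12 h than at 0 h, with a median difference of 0.60, and 4 of them rose by the 2-fold rule, against 19.6% of all genes. These were the lid genes RPN5 and RPN8, both by 1.25, PRE6 by 1.09 and the ATPase gene RPT1 by 1.01. With each column centred on its mean 2 were counted. RPN4 did not move with the subunit genes at this step. It was 0.53, 0.07, -0.46 and 0.37 at 0, 12, 24 and 48 h, so that it was lower at 12 h. At the later steps it had the same sign as the subunit median, at -0.53 from 12 to 24 h and 0.83 from 24 to 48 h. At 12 h the arm with RIM4 stood above the arm with IME1 alone, with a subunit median difference of 0.21 in wild type and 0.11 in kfc1. In that comparison 0 of the 34 genes were counted in either strain, against 15.0% of all genes in wild type and 4.77% in kfc1. In wild type only the samples with IME1 alone came from the earlier series, so RIM4 and series of origin cannot be told apart there.

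**Figure D3:**
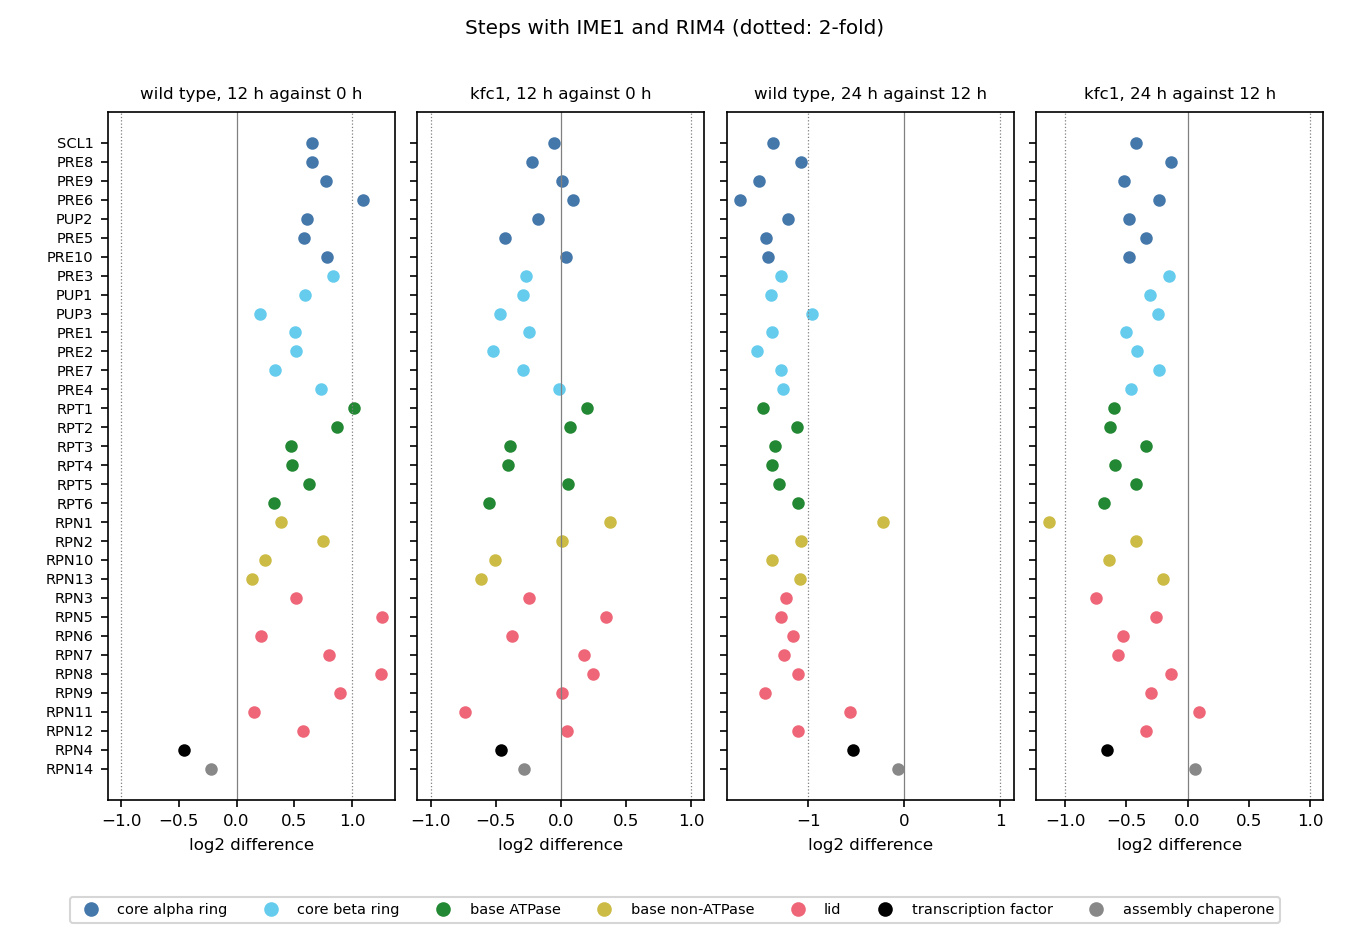
Log2 difference between successive time points with IME1 and RIM4 for each of the 34 genes (rows, coloured by place in the particle) in wild type and kfc1; dotted lines mark a 2-fold difference. In wild type from 12 to 24 h nearly all subunit points lie left of -1 with RPN1 at -0.22, whereas in kfc1 the same step has a median of -0.42 with RPN1 at -1.13.

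In kfc1 with IME1 and RIM4 the subunit genes went lower by smaller steps, without the high level at 12 h. Their median was -0.06, -0.16, -0.66 and -0.84 at 0, 12, 24 and 48 h. From 0 to 12 h the median difference was -0.20 and 0 of the 34 genes were counted, against 33.1% of all genes. From 12 to 24 h it was -0.42, and 1 of the 34 fell, against 3.74% of all genes. That gene was RPN1, which stood at 0.11, 0.49, -0.64 and -0.41 and fell by 1.13, although it was the subunit gene that moved least in wild type at that step. From 24 to 48 h the median difference was -0.17 and 0 were counted, against 6.19% of all genes.

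Over 12 to 48 h against 0 h, 1 of the 34 genes fell in kfc1, where 13.2% of all genes did. It was RPT6, with a mean difference of -1.03 and values of -0.06, -0.61, -1.30 and -1.35. The count rests on the choice of times: it was 0 without the 24 h or without the 48 h columns, 4 without the 12 h columns and 6 with columns centred on their mean. In wild type 0 of the 34 were counted over the same times, against 26.9% of all genes. The subunit median of that comparison was -0.11, and 0.14 without the 24 h columns.

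In this arm the lid genes stood above the beta-ring genes in kfc1 at each of the 4 times. The kfc1 lid median was 0.11, 0.10, -0.36 and -0.42 at 0 to 48 h, and the beta-ring median was -0.10, -0.37, -0.78 and -1.07. In wild type the lid median was -0.30, 0.40, -0.78 and -0.40 and the beta-ring median -0.28, 0.21, -1.07 and -0.70, so that the lid was above from 12 h on. At 24 and 48 h in kfc1 4 lid genes were the highest of the 32 subunit genes. RPN8, the catalytically inactive partner of RPN11, stood at 0.18 at 24 h and 0.01 at 48 h in kfc1, the highest subunit gene at both times, and at 48 h it was 0.85 above the subunit median. RPN5 stood at 0.09 and -0.07, RPN9 at -0.09 and -0.34, and RPN12 at -0.15 and -0.23. RPN11 was the exception within the lid, at -0.80 and -1.28. RPN8 has the substituted element AGTGGCAAA shown above, and RPN5, RPN9 and RPN12 have the exact one. PRE5, also with AGTGGCAAA, was the lowest subunit gene at 48 h at -1.35. Whether the element bears on these levels was not tested.

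The fall from 12 to 24 h in wild type was of similar size with and without the exact element. The median was -1.28 over the 27 subunit genes with GGTGGCAAA and -1.38 over the 5 with a substitution. For the 71 other genes with GGTGGCAAA in their window it was -0.36, and over all genes -0.05. Of the 71, 9 were lower and 6 higher by 2-fold, against 7.33% and 9.8% of all genes. For kfc1 minus wild type at 2 h without overexpression, the medians of the 27 and the 5 subunit genes were -0.66 and -0.65. At 12 h with IME1 they were -0.47 and -0.74.

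The strain comparison without overexpression showed the subunit median lower in kfc1 at each time, once the 0 h value had been added to the later kfc1 columns. The kfc1 median was -0.27 at the start and -0.96, -0.47, -0.47, -0.38 and -0.43 at 2 to 12 h. At 2 h kfc1 was below wild type for 32 of 32 subunit genes, with a median difference of -0.65, against a median of -0.02 over all genes. Of the 34 genes 1 fell by the 2-fold rule at 2 h, against 4.62% of all genes. This was PUP2, an alpha-ring gene, which was -0.11 in wild type and -1.16 in kfc1, a difference of -1.05. At 12 h the median difference was -0.18 and 0 were counted, against 0.954% of all genes.

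The mean over 2 to 12 h gave a subunit median of -0.34 with 0 of the 34 genes counted, against 1.8% of all genes. At 0 h it was -0.27, again with 0 counted, against 1.64%. Those 0 h values also enter the later ones through the added reference. Taken as deposited, the kfc1 columns gave a median difference of -0.37 at 2 h with 0 of the 34 counted, of -0.09 over 2 to 12 h, and of 0.09, on the other side of 0, at 12 h. Within kfc1 the step from 0 to 2 h had a median of -0.68, with 32 of 32 subunit genes lower. It counted 0 of the 34, against 19.0% of all genes, and RPN10 came closest at -0.98. The same step in wild type had a median of -0.25 with 0 counted, against 1.86% of all genes. Averaged over 2 to 12 h against 0 h, kfc1 had a subunit median of -0.28 and 0 counted, against 11.0% of all genes.

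PRE6 stood apart in this arm as well. It was -0.07 in kfc1 at 0 h and -0.25, -0.04, -0.07, -0.09 and -0.19 at 2 to 12 h, the highest subunit gene at each of the 6 times. At 2 h it lay 0.72 above the subunit median. RPN4 in kfc1 was -0.59 at 0 h and -0.16, 0.10, -0.15, -0.17 and -0.06 at 2 to 12 h. Thus at 2 h, when the subunit genes were lowest, RPN4 was higher than at 0 h by 0.43.

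**Figure D4:**
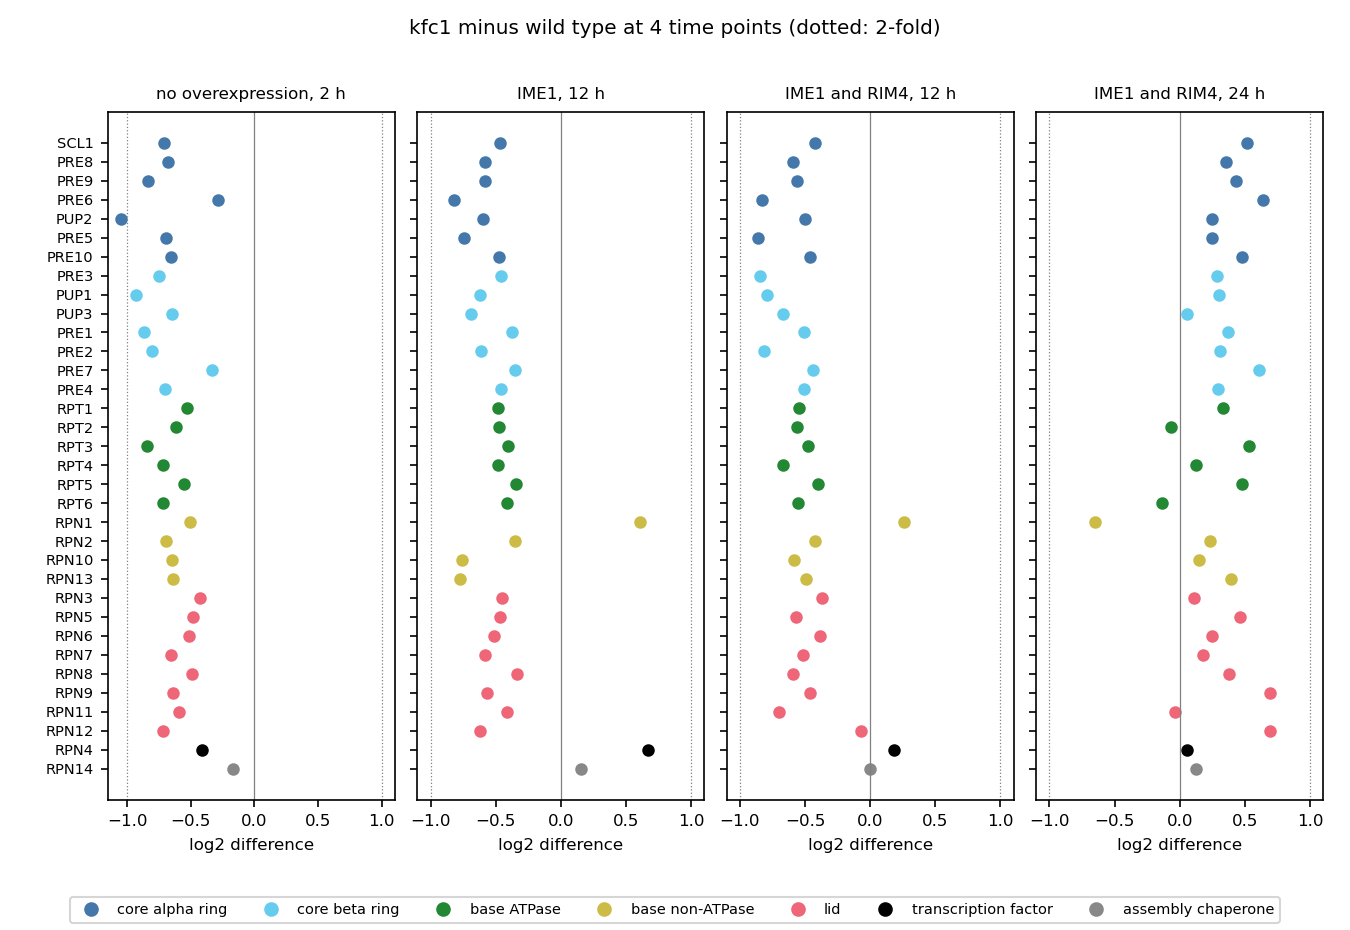
Log2 difference kfc1 minus wild type for each of the 34 genes (rows, coloured by place in the particle) at 4 single time points (panels); dotted lines mark a 2-fold difference. At 2 h without overexpression and at 12 h in both overexpression arms the subunit points lie left of 0, with RPN1 to the right at 12 h, and at 24 h with IME1 and RIM4 28 of the 32 lie to the right.

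With IME1 the strains stood close together from 2 to 8 h, and kfc1 was lower at 0 h and at 12 h. The subunit median in wild type was 0.02, -0.22, -0.13, -0.25, -0.21 and 0.10 at 0, 2, 4, 6, 8 and 12 h. In kfc1 it was -0.25, -0.17, -0.10, -0.25, -0.23 and -0.48. At 12 h kfc1 was lower for 31 of 32 subunit genes, with a median difference of -0.48, and 0 of the 34 were counted, against 8.9% of all genes. PRE6 differed most, at -0.82.

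RPN1 was the exception at 12 h, higher in kfc1 by 0.61. In kfc1 with IME1 it was -0.12, -0.06, -0.03, -0.21, -0.13 and 0.70 at 0 to 12 h, so that it lay 1.19 above the subunit median at 12 h, the widest gap of any subunit gene in the table. In wild type it was 0.24, -0.08, -0.05, -0.23, -0.07 and 0.09. No annotated gene overlaps RPN1, and its neighbours VMA16 and DAP2 stood at -0.28 and -0.05 in kfc1 at 12 h. Why RPN1 differed from the other subunit genes was not tested. Over all of 2 to 12 h the strain difference with IME1 had a subunit median of -0.08, and 0.0048 without 12 h, with 0 counted against 0.708% of all genes. At 0 h it was -0.28 with 0 counted, against 12.6%.

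With IME1 and RIM4 the order of the strains changed with time. At 0 h kfc1 was above wild type, with a subunit median difference of 0.25 and 0 of the 34 counted, against 2.74% of all genes. At 12 h it was below, at -0.53 for the median and for 31 of 32 subunit genes, with 0 counted against 19.2%. At 24 h it was above again, at 0.30 for 28 of 32 genes, with 0 counted against 9.53%, and at 48 h it was at -0.18, with 0 counted against 3.69%. RPN9 was 0.70 higher at 24 h, while RPN1 was 0.65 lower in kfc1 (a difference of -0.65). The mean over 12 to 48 h had a median of -0.13, and 0.03 without 12 h, with 0 counted against 2.41% of all genes. These time courses come from the same series for both strains.

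RPN4 behaved unlike the subunit genes in the IME1 arm, falling by 2 h. It stayed low in wild type, and in kfc1 until 8 h. In wild type it was 0.98 at 0 h and -0.99, -0.87, -1.08, -1.04 and -0.71 at 2, 4, 6, 8 and 12 h. In kfc1 it was 0.59 at 0 h and -0.76, -0.71, -0.71, -0.70 and -0.04. Of the 32 conditions, wild type with IME1 thus held both the highest value of RPN4, at 0 h, and the lowest, at 6 h.

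Against its own 0 h, RPN4 had a mean difference of -1.92 in wild type, between -2.07 and -1.70 at the single times, and it was the 1 of the 34 genes counted, where 12.6% of all genes fell. In kfc1 the mean was -1.17, again the 1 gene counted, where 4.99% of all genes fell. The first step, from 0 to 2 h, had a difference of -1.97 in wild type and -1.35 in kfc1, where 12.3% and 4.17% of all genes fell. Subunit genes did not go with it: their median mean difference was -0.16 in wild type and 0.09 in kfc1 (-0.01 with columns centred on their mean), and PRE6, the highest, had 0.63 and 0.43.

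The start of this arm is a part of that result, and the titles do not say whether IME1 was induced at 0 h. At 0 h RPN4 with IME1 was above the arm without overexpression by 0.98 in wild type, with 0 of the 34 counted by a narrow margin against 22.7% of all genes, and by 1.17 in kfc1, the 1 gene that rose, against 1.58% of all genes. Measured from 0 h without overexpression, the mean difference of RPN4 over 2 to 12 h was -0.94 in wild type, below the 2-fold rule, and 0.00 in kfc1, whose own 0 h value there was -0.59. Matched by time at 2 to 12 h, IME1 against no overexpression gave a mean of -1.09 for RPN4 in wild type, with differences of -1.24, -0.86, -1.37, -1.15 and -0.82. It was the 1 of the 34 genes that fell, against 3.97% of all genes. In kfc1 the mean was -0.50, with 0 of the 34 counted against 6.89% of all genes, and the difference at 12 h was 0.02. The subunit median of the same comparison was 0.02 in wild type (-0.06 without 12 h) and 0.27 in kfc1. In kfc1 it was 0.78 at 2 h, where 7 subunit genes reached 2-fold against 14.7% of all genes in either direction, and 0.37, 0.17, 0.09 and -0.01 at 4 to 12 h. These kfc1 differences and the count of 7 rest on the added 0 h value. Over the 6 comparisons that use those kfc1 columns, taking them as deposited shifted the subunit median by up to 0.29.

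Between 8 and 12 h RPN4 went from -1.04 to -0.71 in wild type and from -0.70 to -0.04 in kfc1, so that it was 0.67 higher in kfc1 at 12 h. Over that step the subunit median was 0.26 in wild type, with 32 of 32 genes higher and 0 counted against 4.09% of all genes. In kfc1 it was -0.14, with 0 counted against 9.11%, and RPN1 differed by 0.83. RPN14, the assembly chaperone, stayed between -0.28 and 0.27 in all 32 conditions.

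**Figure D5:**
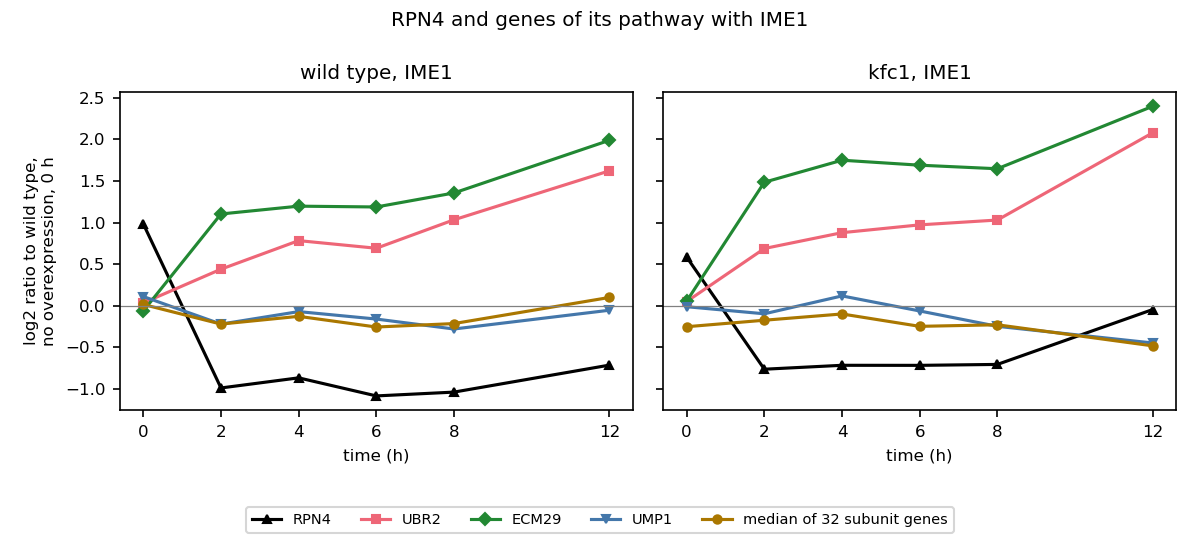
Log2 ratio to wild type without overexpression at 0 h of RPN4, UBR2, ECM29, UMP1 and the median of the 32 subunit genes against time in h with IME1, in wild type (left) and kfc1 (right). RPN4 drops after 0 h to -0.99 and -0.76 at 2 h, UBR2 and ECM29 climb to 1.62 and 1.99 in wild type and 2.08 and 2.40 in kfc1 at 12 h, and UMP1 stays with the subunit median.

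Genes that act around the particle were described from 3 lists: assembly and associated proteins (16 measured), ubiquitin and substrate delivery (19), and turnover and upstream regulators of Rpn4 (7). Some followed the subunit genes and others ran against them. UMP1, the chaperone that is enclosed in the maturing core and is its first substrate, was -0.18, 0.04, -1.06 and -0.94 in wild type with IME1 and RIM4. In kfc1 it was 0.12, -0.61, -1.11 and -1.18. From 12 to 24 h in wild type 3 of the 16 assembly and associated genes fell, UMP1, UBP6 (a deubiquitinase bound to the base) and HUL5 (a ubiquitin ligase bound to the particle), against 7.33% of all genes. NAS6, a chaperone of the ATPase ring, was the 1 that rose, by 1.22, against 9.8% of all genes. SEM1, a small lid subunit that the symbol rule does not take, is in this list and was not counted at that step. The median of the list was -0.35. In the delivery list 7 of 19 fell, against the same 7.33%, among them CDC48, the segregase that extracts ubiquitinated proteins, and the shuttle receptors RAD23, DSK2 and DDI1. DOA4, which recovers ubiquitin, was the 1 that rose, by 1.19, against 9.8%.

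ECM29, which binds core and regulatory particle, rose with IME1 in both strains. In wild type 2 of the 16 genes of its list rose, ECM29 and POC4, against 24% of all genes. SPG5 fell there, with a mean of -1.24, against 12.6% of all genes. In kfc1 ECM29 was the 1 of the 16 that rose, against 9.69%. In wild type ECM29 was -0.06 at 0 h and 1.10, 1.20, 1.19, 1.36 and 1.99 at 2 to 12 h. In kfc1 it was 0.06 and then 1.49, 1.75, 1.69, 1.65 and 2.40. It also rose with IME1 and RIM4 in both strains, to 1.63 at 12 h in wild type and 2.38 in kfc1, where 15.5% and 20.4% of all genes rose over the later times. ECM29 is the 1 gene of its list with an exact GGTGGCAAA in its window, and its course was unlike that of the subunit genes. UMP1, without the exact element, followed them, with an r of 0.90 to the subunit median. Whether the element bears on either course was not tested.

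UBR2 encodes the ubiquitin ligase that marks Rpn4 for degradation. With IME1 it was 0.04, 0.44, 0.78, 0.69, 1.03 and 1.62 at 0 to 12 h in wild type and 0.05, 0.69, 0.88, 0.97, 1.03 and 2.08 in kfc1. It was counted as higher over time in kfc1, with a mean of 1.08, where 9.69% of all genes rose. In wild type it was not counted, with a mean of 0.88, and the difference between the strains was not tested. Of the 7 genes of its list it was the only 1 counted over the later times of the overexpression arms. With IME1 and RIM4 it rose in both strains, 1 of 7 against 15.5% of all genes in wild type and 20.4% in kfc1. From 12 to 24 h in wild type it fell by 1.03, together with the subunit genes, where 7.33% of all genes fell.

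BLM10, an activator that caps the core, and TMA17, an assembly chaperone of the ATPases, rose from 8 to 12 h in kfc1 with IME1, 2 of the 16 genes of the list against 4.33% of all genes. BLM10 went from -0.27 to 1.32 and TMA17 from 0.52 to 1.53, while in wild type they were -0.19 and 0.73 at 12 h. At 12 h in kfc1 RPN1 stood at 0.70 and the subunit median at -0.48, with 3 of the 32 subunit genes above 0.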

How the data were processed

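The 34 genes, the gene lists and the rule for counting were chosen with earlier results of these data known. Per the submitters' processing notes, the authors used BWA and DESeq2 with the build sacCer3; the counting of reads, its strand setting and any shrinking are steps not given in the sources used here. Values in the deposited table are log2 ratios, 1 column per condition with the replicates combined by the authors; the header does not state the base of the logarithm, which was taken as 2. It has 6660 genes with values and 4 empty lines.

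Blank cells gave the reference of each column. For 160 genes blank in a wild-type column, 31 of 102 values were below 0 in the 5 kfc1 columns of 2 to 12 h without overexpression, against 0 of 412 elsewhere. Those 5 were therefore taken to be relative to kfc1 at 0 h, which was added.

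There were 16 comparisons in the plan, and 20 at single steps or times were added with the values already known. The genes named were the 34, from each list those counted or with the largest mean differences, and the 8 genes outside them most correlated with the subunit median; named outside this rule, after their values were seen, were RPN1's neighbours, SEM1 and the other genes with PACE (DOC1, PRD1, UPA2 and BUD27). Symbols came from RefSeq R64 (5986 identifiers matched, 674 did not). The counting script was tested on simulated data. Promoter windows took the 500 bases before the start codon, and a gene's own window is among the 6019. Python 3.11.15, pandas 2.3.3, numpy 2.4.6 and pysam 0.24.0 were used. Alternatives were centring, other references or starts, no same-sign rule, time points left out and genes that shared exact values left out.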

Additional observations from a re-analysis of the deposited data

How the results depend on the processing

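No paired analysis was possible because the table holds 1 combined value per condition; leaving out a replicate, a level filter and a count model were not run for the same reason. Over 36 comparisons and their alternatives, the count among the 34 genes stayed within 1.5 times in 163 of 176 cases, and the subunit median moved by at most 0.36 on the log2 scale (without the 12 h columns) in 176. In 7 of those 176 it changed sign: the strains with IME1 (0.0048) and with IME1 and RIM4 (0.03) and IME1 against none in wild type (-0.06) without 12 h, wild type over time with IME1 and RIM4 (0.14) without 24 h, the strains at 12 h without overexpression (0.09) as deposited, and kfc1 over time with IME1 (-0.01) and IME1 against none in wild type (-0.02) under mean-centring. With the kfc1 columns as deposited, the count became 1 for kfc1 over time without overexpression (RPN4, 1.09), 1 for its step from 0 to 2 h (RPN4, 1.02), 1 for IME1 against none in kfc1 (RPN4, -1.09) and 0 for the strains at 2 h. With 0 h without overexpression as the start, it became 0 for both strains over time with IME1 (RPN4 -0.94 in wild type and 0.0015, reversed in sign, in kfc1). When each column was centred on its mean (lowest -0.160, highest 0.176), it became 6 for kfc1 over time with IME1 and RIM4, 2 for wild type from 0 to 12 h there, 1 for IME1 against none in wild type at 0 h (RPN4, 1.14) and 1 for kfc1 without overexpression from 0 to 2 h. For kfc1 over time with IME1 and RIM4 it was 4 without 12 h, 0 without 24 h and 0 without 48 h. What lies behind each shift was not tested. Centring takes the column's mean from every gene in it, and why the column means differ was not tested. Ratios without counts cannot show which differences exceed replicate error.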

Other observations

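Outside the 34 genes, those whose values over the 32 conditions were most like the subunit median were UMP1 (Pearson's r 0.90), the chaperonin gene CCT8 (0.89), the Hsp90 co-chaperone gene SBA1 (0.87), UBP6 (0.86), MIC26 (0.85), DDI1 (0.85), GET3 (0.85) and CCT3 (0.82). SBA1 stood at -0.34, 0.02, -0.80 and -0.89 at 0, 12, 24 and 48 h in wild type with IME1 and RIM4. DDI1, a shuttle receptor, stood at -0.17, -0.13, -1.22 and -0.68 there.

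Of the 71 other genes with GGTGGCAAA in their window, DOC1, a subunit of the anaphase-promoting complex, had the largest decrease from 12 to 24 h in wild type with IME1 and RIM4, at -1.83. PRD1 followed at -1.72, and CDC48 was at -1.18. At the other end UPA2 was at 1.84 and BUD27 at 1.58.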
